A study of Homo sapiens with 6 samples.

Results

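Forkhead, SOX, T-box and GATA genes encode transcription factors that specify cell type during development. The 58 genes described here were a fixed list of 27 forkhead, 17 SOX, 8 T-box and 6 GATA genes, found by gene identifier among the 60483 genes in the count matrix, and all 58 were present. They were followed in A2780, an established human ovarian carcinoma line, by stranded single-end RNA-seq of 3 WT libraries and 3 CDK12 KO libraries. The KO line carried a CRISPR/Cas9 knockout aimed at exon 1 of CDK12, a kinase that phosphorylates RNA polymerase II during elongation. It was a single clone, in which the paper reports a doubling of DNA content and chromosome number, with further gains and losses of chromosomes. The loss of CDK12, the altered chromosome content and the history of that clone therefore cannot be told apart. Both groups were cultured in the same serum-containing medium, and the labels do not say whether the WT cells had been through transfection and cloning. Nor do they say that the 3 libraries of a group came from separate cultures, so the p-values measure only the spread between these libraries.

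Each family shares a DNA-binding domain. Forkhead proteins bind through a winged-helix domain and SOX proteins through an HMG box that bends DNA, while T-box and GATA proteins bind through the T-box and zinc fingers. Many members are active in only a few tissues, and FOXL2, FOXO1, GATA4 and GATA6 are known for roles in the ovary. FOXO proteins respond to insulin and growth factor signals: AKT phosphorylates them and keeps them out of the nucleus.

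Total counts ran from 11098400 to 30899045 per library, and WT replicate 3 was the shallowest. Levels are given as CPM, the counts of a gene relative to its library total scaled by the TMM method, on which 3 counts equal 0.10 to 0.270 CPM. Mitochondrial genes took 7.42 to 8.85% of counts. For CDK12 itself the counts were 2831, 3759 and 1294 in WT and 2432, 2504 and 1818 in KO, and the log2 fold change by edgeR was -0.23 (adjusted p = 8.2e-04). Throughout, ± gives the SD over the 3 libraries unless SE is stated. A level of RNA does not show whether an edited coding sequence still makes protein. By western blot the paper reports no CDK12 protein in the KO clone, with antibodies to either end of it. The defining ovarian markers PAX8, WT1, MUC16 and ESR1 were too low to test in both groups, whereas KRT8, KRT18 and MSLN were measured and were higher in KO and EPCAM was lower (3.19 ± 0.794 against 2.17 ± 0.0446 CPM). The 4 mesenchymal markers summed to 7104 to 7435 CPM in WT and 1499 to 1520 CPM in KO, nearly all of it VIM, with ZEB1 also lower and FN1 higher (6.26 ± 0.559 against 10.6 ± 0.374 CPM). The 5 fibroblast markers summed to 5228 to 5362 CPM in WT and 2692 to 2824 CPM in KO, nearly all of it COL1A2 and COL1A1. DCN and LUM were at 0 in every KO library, but were low in WT too, at 0.757 ± 0.0592 and 0.613 ± 0.103 CPM. Both passed the filter on low counts through WT alone, which favours genes lower in KO. Sums of the 5 leukocyte, 4 endothelial and 3 erythroid markers did not exceed 1.19 CPM in any library. The part of these marker shifts in the results that follow was not tested. In bulk RNA, fewer cells expressing a gene and less RNA per cell cannot be told apart.

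Of the 58 genes, 29 passed the filter on low counts and were tested, and the other 29 were too low. Between the KO clone and WT, a minority of the tested genes differed by large amounts. FOXP1, TBX3, TBX4 and GATA3 were called higher in KO, and FOXC1, FOXL2, FOXO1, SOX4, SOX15 and GATA2 were called lower, a call meaning an adjusted p under 0.05 with a log2 fold change above 1 or below -1. These 4 and 6 genes were 13.8% and 20.7% of the 29 tested, against a background of 8.30% called higher and 7.73% called lower among the 16198 genes tested. FOXP1, TBX3 and GATA3 passed the filter on low counts through their KO libraries alone, which favours genes higher in KO. Their p-values and the counts that include them carry that limit. By adjusted p alone, 8 of the 29 were higher and 15 were lower, beside 31.9% and 32.0% of all tested genes. The median log2 fold change was -0.16 over the 29 genes and 0.00 over all tested genes. In 23 of the 29 the WT and KO libraries did not overlap, which held for 66.4% of all tested genes. An exact two-sided permutation test of 3 against 3 libraries cannot go below p = 0.1, the value these 23 genes had.

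**Figure D1:**
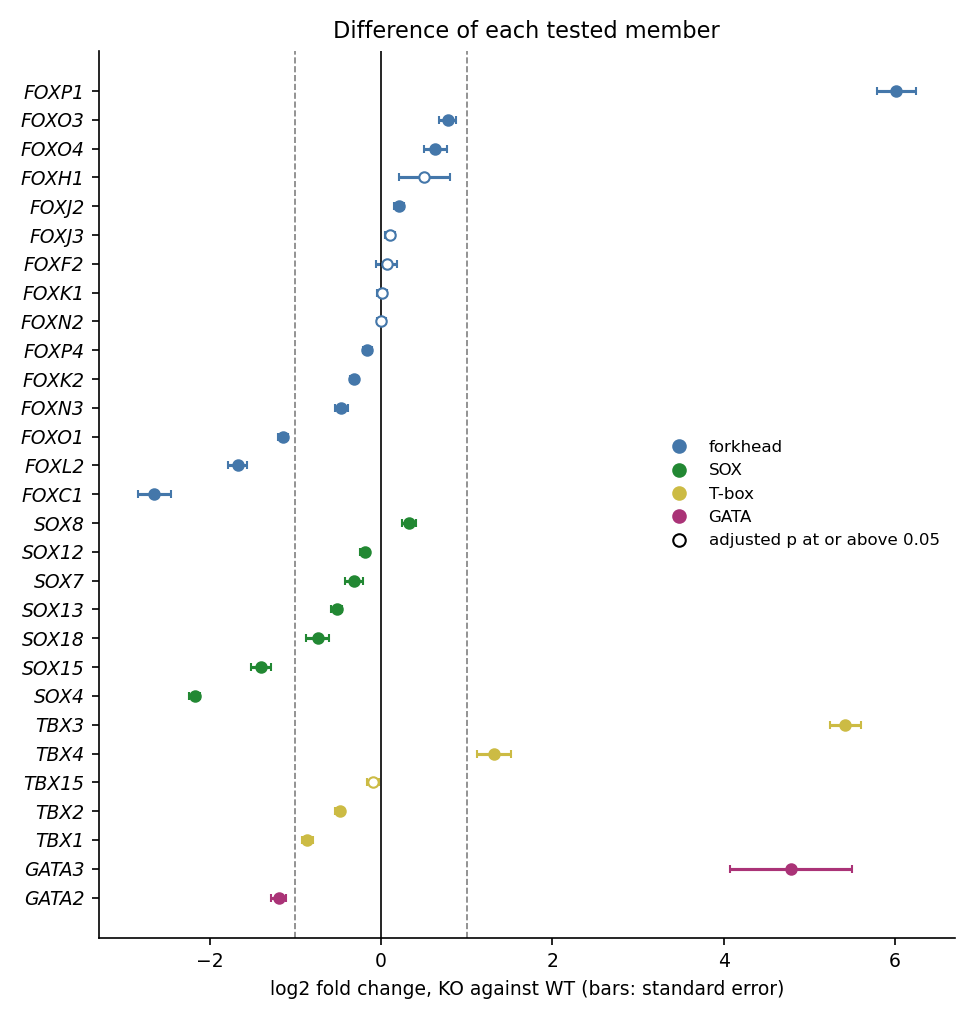
Log2 fold change of KO against WT for each of the 29 tested genes, grouped by family, with bars of 1 standard error and dashed lines at -1 and 1. FOXP1, TBX3 and GATA3 lie at 6.02, 5.42 and 4.79, far to the right of the other genes, and FOXC1 lies farthest to the left at -2.65.

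Promoter sequence was available for 41 of the 58 genes from RefSeq (GRCh38.p14). For the called genes FOXC1, FOXO1 and SOX4, all lower in KO, there is a single RefSeq start and no annotated exon in the 100 bases before it. These bases are shown 5′ to 3′ on the gene's strand because the 3 genes lost much of their RNA and their start is unambiguous. Capitals mark the CCAAT box, read here as CCAAT or its reverse ATTGG, a common element of proximal promoters that was searched for after the sequences were seen. FOXC1 is the plus-strand stretch chr6:1609815-1609914, FOXO1 the minus-strand stretch chr13:40666642-40666741 and SOX4 the plus-strand stretch chr6:21593651-21593750.
FOXC1: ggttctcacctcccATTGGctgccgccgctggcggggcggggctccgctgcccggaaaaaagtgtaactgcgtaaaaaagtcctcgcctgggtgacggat
FOXO1: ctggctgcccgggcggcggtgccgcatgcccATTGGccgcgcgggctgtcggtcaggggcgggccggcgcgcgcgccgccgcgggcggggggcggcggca
SOX4: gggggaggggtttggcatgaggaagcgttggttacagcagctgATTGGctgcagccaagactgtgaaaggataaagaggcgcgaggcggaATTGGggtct
Each of the 3 stretches holds the box, as do 15 of the 63 windows of the listed genes (23.8%) and 18.1% of all 35116 RefSeq windows of the same length. Counted by gene, 13 of the 41 listed genes with a sequence hold it, and 6 of the 8 called ones. FOXP1 and GATA3, which were called higher, are among these, so the box is not particular to genes that fell. However, FOXP1 and GATA3 have 6 RefSeq starts each, so the counts by gene compare unlike numbers of windows. The 3 stretches shown differ in base composition. CG dinucleotides numbered 20 in FOXO1, 9 in FOXC1 and 4 in SOX4.

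In the 250 bases before the start, the median number of CG dinucleotides was 20 over the 63 windows of the listed genes and 11 over all windows. The window richest in CG had a median of 28.5 in the 20 tested genes with a sequence and 20 in the 21 untested ones. Each family's own core motif was searched on both strands of the same 250 bases. The forkhead letters GTAAACA stood in 3 of the 63 windows (4.76%, against 2.98% of all windows) and the SOX letters AACAAT in 8 (12.7%, against 8.98%). The T-box letters AGGTGTGA stood in 1 window (1.59%, against 0.786%), and AGATAA, bound by GATA factors, in 2 (3.17%, against 9.17%). No motif was found in the windows of FOXC1, FOXO1 or SOX4.

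The forkhead family had 15 tested genes of 27, with 1 called higher, 3 called lower and a median log2 fold change of 0.01. FOXP1 (ENSG00000114861, chr3:70954693-71583978, minus strand), a repressor in B cells, neurons and heart, showed the largest rise among the 29 tested genes. Its counts were 5, 2 and 6 in the WT libraries and 335, 318 and 224 in the KO libraries, or 0.182, 0.0668 and 0.540 CPM against 13.6, 11.8 and 12.6 CPM. WT was at or near the level of a few reads and every KO library stood far above it. Passing the filter through KO alone, it had a fitted log2 fold change of 6.02 ± 0.23 (SE, adjusted p = 3.15e-21), and the ratio of the pooled, depth-scaled counts was 66.7 with a 95% exact interval of 38.8 to 126, which covers counting error only. The fitted value was 6.64 without WT replicate 3 and 5.43 without WT replicate 2.

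FOXC1 (ENSG00000054598, chr6:1609915-1613897), a factor of mesenchyme, eye and vessel development, moved the other way. It stood at 4.71, 5.17 and 4.68 CPM in WT and at 0.895, 0.854 and 0.506 CPM in KO. The groups were widely separated, with a log2 fold change of -2.65 ± 0.19 (SE, adjusted p = 1.04e-13). FOXF2, 214 kb away and also a mesenchymal forkhead gene, averaged 5.30 ± 0.321 CPM in WT against 5.61 ± 0.195 CPM in KO and did not pass the test (adjusted p = 0.646). FOXQ1, the third forkhead gene of that cluster, had 3 counts in KO replicate 1 and none elsewhere.

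FOXL2 (ENSG00000183770, chr3:138944224-138947137), the granulosa cell factor that maintains ovarian identity, was at 11.97, 11.3 and 11.6 CPM in WT and 3.70, 3.45 and 3.82 CPM in KO. No KO library came near the WT range, and the mean was 3.18-fold lower (log2 fold change -1.67 ± 0.11 SE, adjusted p = 1.05e-14).

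The FOXO genes, effectors of insulin signalling, moved in opposite directions. FOXO1 (ENSG00000150907, chr13:40555667-40666641) was at 71.8, 74.1 and 68.8 CPM in WT and at 32.1, 32.1 and 33.7 CPM in KO, a log2 fold change of -1.14 ± 0.06 (SE, adjusted p = 4.33e-18). FOXO3 rose from 9.60, 11.4 and 10.99 CPM to 19.1, 15.4 and 20.8 CPM, a log2 fold change of 0.78 (adjusted p = 2.95e-08) that stayed under the fold threshold. FOXO4 rose as well, from 3.72 ± 0.466 to 6.00 ± 0.408 CPM (log2 fold change 0.64, adjusted p = 7.65e-05). All 3 genes had separate WT and KO ranges. FOXO3 has a near-identical copy, FOXO3B, and reads may be divided between them; FOXO3B had a log2 fold change of -0.48 that did not pass (adjusted p = 0.0884). Per exon length, FOXO1 remained the highest of the 3 in KO, at 5.48 ± 0.151 RPKM (CPM divided by exon length in kb) beside 2.40 ± 0.364 for FOXO3 and 1.58 ± 0.108 for FOXO4.

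**Figure D2:**
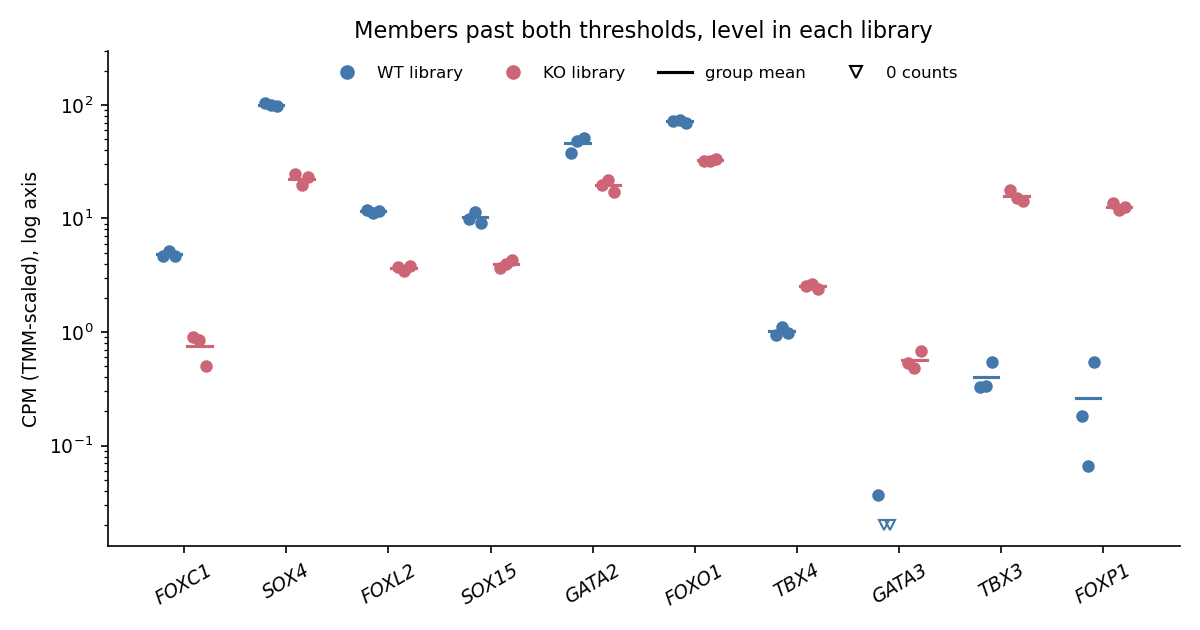
Level of each called gene in every library, in TMM-scaled CPM on a log axis, with blue for WT, red for KO, a line for the group mean and open triangles for libraries with 0 counts. No gene has overlapping groups, and the WT levels of GATA3, TBX3 and FOXP1 lie below 1 CPM.

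The remaining tested forkhead genes changed by less. FOXK2, which with FOXK1 controls metabolic and autophagy genes, was at 174, 183 and 171 CPM in WT and 143, 142 and 138 CPM in KO (log2 fold change -0.32, adjusted p = 7.12e-07). FOXN2 was the steadiest forkhead gene, with 92.7, 96.6 and 97.0 CPM in WT and 99.7, 87.1 and 101 CPM in KO (log2 fold change 0.01, adjusted p = 0.935), so that its groups overlapped. FOXN3 (-0.46) and FOXP4 (-0.16) fell and FOXJ2 (0.21) rose, in log2 fold change, while FOXF2, FOXH1, FOXJ3, FOXK1 and FOXN2 did not pass the test. FOXH1, which passed the filter through KO alone, was measured low, with 3 to 30 counts per library. Per exon length, FOXK2 (17.6 ± 0.649 RPKM) and FOXN2 (17.4 ± 0.432 RPKM) led the family in WT and did not differ beyond their spread; in KO FOXN2 stood at 17.5 ± 1.39 and FOXK2 at 14.1 ± 0.251 RPKM. With the longest transcript as the length, FOXK2 led in both groups, with 28.1% and 25.2% of the forkhead sum. The forkhead sum was 91.3, 96.8 and 92.5 RPKM in WT and 84.4, 79.9 and 84.5 RPKM in KO.

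In the SOX family 7 of 17 genes were tested, 2 were called lower and none higher, and the median log2 fold change was -0.52. By adjusted p alone 6 were lower and 1, SOX8, was higher. SOX4 (ENSG00000124766, chr6:21593751-21598619), a progenitor and tumour-associated factor, was at 104, 100.3 and 97.3 CPM in WT and 24.6, 19.7 and 23.0 CPM in KO. Its mean was 4.49-fold lower, with no overlap (log2 fold change -2.17 ± 0.07 SE, adjusted p = 3.71e-24). SOX15 (ENSG00000129194, chr17:7588178-7590094), known from muscle and placenta, was at 9.96, 11.5 and 9.18 CPM in WT and 3.66, 3.94 and 4.33 CPM in KO (log2 fold change -1.40 ± 0.12 SE, adjusted p = 4.40e-12). SOX15 overlaps MPDU1 on the opposite strand, which had 751 to 2094 counts per library, so the call is uncertain if reads were not assigned by strand.

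SOX12, the close relative of SOX4, changed much less. It was at 92.1, 90.7 and 92.9 CPM in WT and at 85.4, 80.0 and 75.9 CPM in KO (log2 fold change -0.19, adjusted p = 0.00208). SOX8, a gonadal and glial factor, was at 20.7, 19.9 and 20.9 CPM in WT and 26.8, 27.9 and 21.6 CPM in KO (log2 fold change 0.33, adjusted p = 4.98e-04), with KO replicate 3 only just above WT. SOX18, a vascular and lymphatic factor, was at 7.12, 7.08 and 7.83 CPM in WT and 5.49, 3.71 and 3.71 CPM in KO (-0.74, adjusted p = 1.45e-05). SOX13 (-0.52) and SOX7 (-0.31) also fell.

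The order of the SOX genes per length changed with these levels. In WT, SOX4 held 32.8% and SOX12 31.2% of the family's summed RPKM. In KO, SOX12 held 45.6% and SOX8 followed with 15.1%, while SOX4 stood at 4.60 ± 0.520 RPKM beside 20.7 ± 0.730 RPKM in WT. The sum itself was 63.6, 63.3 and 62.3 RPKM in WT and 40.1, 37.2 and 35.8 RPKM in KO.

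Of the 8 T-box genes 5 were tested, 2 were called higher, none lower, and the median log2 fold change was -0.09. TBX3 (ENSG00000135111, chr12:114670255-114684175), a repressor of limb, heart and mammary development, had 9, 10 and 6 counts in WT and 441, 409 and 255 counts in KO. This corresponded to 0.328, 0.334 and 0.540 CPM against 17.9, 15.2 and 14.3 CPM, a fitted log2 fold change of 5.42 ± 0.18 (SE, adjusted p = 9.44e-23) in a gene that also passed the filter through KO alone. As for FOXP1, the WT libraries held a few reads each and every KO library held many more; the pooled ratio was 43.7 with a 95% exact interval of 29.4 to 67.8. TBX5, a heart gene 262 kb from TBX3, had no count in any library.

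TBX4 (ENSG00000121075, chr17:61452404-61485110), of hindlimb and lung, was at 0.949, 1.10 and 0.991 CPM in WT and 2.56, 2.64 and 2.42 CPM in KO. The groups stood apart at a low level (log2 fold change 1.32 ± 0.20 SE, adjusted p = 9.04e-07). This call was lost when the test was made against the fold threshold itself. TBX2 (chr17:61399843-61409466), a repressor of cell cycle inhibitors that lies 42.9 kb from TBX4, was by far the most abundant T-box gene and moved the other way. It was at 674, 633 and 661 CPM in WT and 480, 497 and 430 CPM in KO (log2 fold change -0.48, adjusted p = 7.62e-10). TBX1, of pharyngeal development, fell from 43.3, 39.8 and 41.9 CPM to 22.3, 24.4 and 21.8 CPM (-0.86, adjusted p = 3.39e-13), and TBX15 did not pass, at 23.3 ± 1.5 and 21.9 ± 0.346 CPM.

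Per exon length TBX2 led all listed genes in both groups, with 108 ± 3.41 RPKM in WT and 77.1 ± 5.72 RPKM in KO, or 86.9% and 84.5% of the T-box sum. TBX1 and TBX15 followed, at 10.6 ± 0.452 and 5.36 ± 0.345 RPKM in WT and 5.81 ± 0.352 and 5.05 ± 0.0797 RPKM in KO. TBX3 was last of the 5 in WT, at 0.0673 ± 0.0203 RPKM below TBX4 with 0.254 ± 0.0197 RPKM. In KO TBX4 was last, with 0.635 ± 0.0282 RPKM, and TBX3 stood above it at 2.65 ± 0.317 RPKM.

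**Figure D3:**
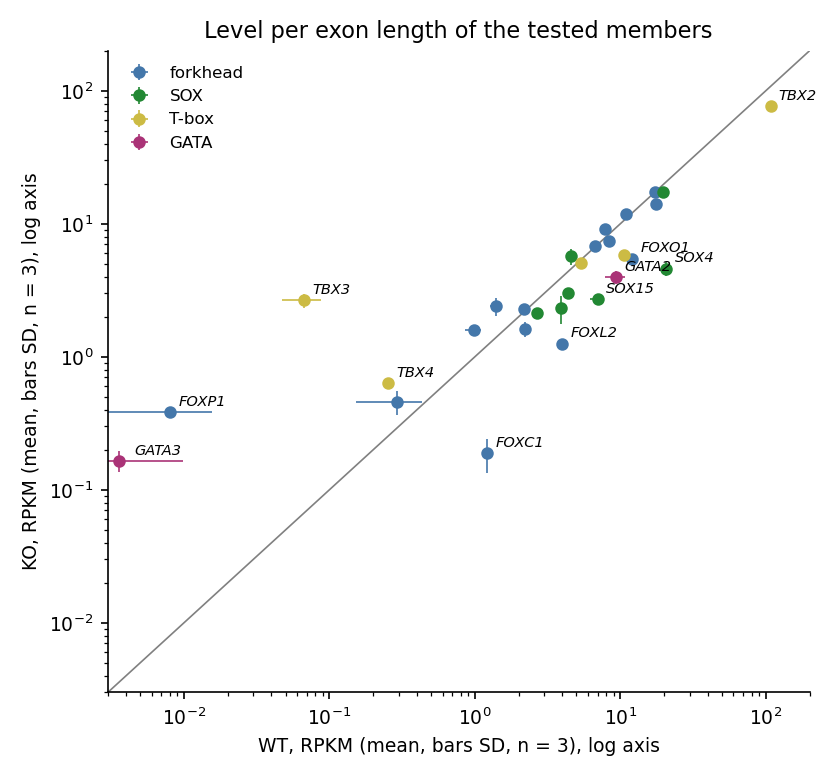
Mean level per exon length of each tested gene in WT (horizontal) and KO (vertical), in RPKM on log axes, coloured by family with bars of 1 SD over 3 libraries and a line of equality. TBX2 is highest in both groups, and FOXP1, TBX3 and GATA3 lie far above the line at low levels; bars that reach the left edge extend beyond it.

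Among the GATA genes only GATA2 and GATA3 were tested, and they were called in opposite directions. GATA2 (ENSG00000179348, chr3:128479427-128493201), a factor of blood progenitors and endothelium, was at 37.5, 48.6 and 51.2 CPM in WT and 19.9, 21.8 and 17.2 CPM in KO (log2 fold change -1.19 ± 0.09 SE, adjusted p = 1.51e-13). WT replicate 1 was the lowest of its group and still stood above every KO library. Its antisense neighbour GATA2-AS1, which overlaps it, fell from 8.56 ± 0.705 to 1.98 ± 0.168 CPM (log2 fold change -2.09, adjusted p = 9.16e-15), and the same limit of strand applies. Without strand it would also apply to FOXH1 with KIFC2 (331 to 919 counts per library), FOXK2 with WDR45B, TBX1 with GNB1L and TBX2 with TBX2-AS1. The same holds for FOXP4 with FOXP4-AS1, FOXN3 with FOXN3-AS1 and SOX12 with NRSN2-AS1. GATA3 (ENSG00000107485, chr10:8045378-8075198), of T cells and luminal breast epithelium, had 1, 0 and 0 counts in WT and 13, 13 and 12 counts in KO. It too passed the filter only through KO, and the fitted log2 fold change of 4.79 (adjusted p = 6.08e-07) depends on the handling of the low counts. It was 6.61 without WT replicate 1, which held the only WT read, and 4.13 without WT replicate 2. The pooled ratio was 37.5, with a 95% exact interval of 6.34 to 1522. Per exon length GATA2 held 99.9% of the GATA sum in WT and 94.5% in KO, where GATA3 was second at 0.166 ± 0.0294 RPKM. In WT the second place went to GATA1, on a single read.

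Of the 29 untested genes 12 had no count in any library, which allows up to 3 counts, or 0.10 to 0.270 CPM, in each. They were FOXA2, FOXD3, FOXI1, FOXP2, SOX5, SOX10, SOX11, SOX17, SOX21, TBX5, TBX20 and GATA5, among them pluripotency, neural crest, endoderm and heart factors. The others were detected at a few reads. SOX9, the testis and cartilage factor, had 13, 11 and 6 counts in WT and 1, 0 and 1 in KO, a pooled ratio of 15.2 in favour of WT with a 95% exact interval of 3.85 to 131. TBX18 had 11, 5 and 1 counts in WT and none in KO, while GATA4, a gonadal and cardiac factor, had none in WT and 8, 4 and 5 in KO. When the filter was left out, SOX9 (adjusted p = 3.90e-06), TBX18 (9.61e-05), FOXD1 (0.00308) and SOX1 (0.00985) were called lower and GATA4 (1.06e-04) and FOXJ1 (0.00736) higher by edgeR, and these 6 calls rest on at most 13 counts in a library.

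The neighbourhood of each called gene was compared with it. The counts of called neighbours stand beside 8.30% called higher and 7.73% called lower among all tested genes. Around FOXC1 the 4 tested genes within 1 Mb had a median log2 fold change of 0.09 and none was called. Around GATA3 none of 4 was called, and 15 genes around FOXL2 included 1 called higher and none lower (median 0.08). The gene called higher, ACTG1P1, was low, at 0.536 ± 0.240 CPM in WT and 1.24 ± 0.0570 CPM in KO. Both genes directly adjoining FOXL2 fell with it in edgeR without reaching the fold threshold. They were FOXL2NB (-0.62, adjusted p = 1.66e-07) and LINC01391 (-0.96, adjusted p = 0.0163). CDKAL1, the one tested gene near SOX4, had -0.44, and RBM19, the one near TBX3, had 0.40; neither was called.

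The other regions held called neighbours, in the direction of the listed gene for FOXP1 and FOXO1 and in the opposite or in both directions for the rest. Around FOXP1, 2 of 4 genes were called higher, MITF (3.51), the melanocyte and osteoclast factor, and EIF4E3 (1.21), and the neighbours' median of 0.93 stood beside 0.25 for chromosome 3. Around FOXO1, 4 of 17 were called lower, including LHFPL6 (-2.74), RGCC (-4.10) and VWA8 (-1.67), with a median of -0.40 beside -0.10 for chromosome 13. The 4 lay over 500 kb from FOXO1, and none of the 9 tested genes within 500 kb was called. MITF also lay outside 500 kb of FOXP1, where 1 of 2 genes was called. TBX4 rose in a region where 3 of 18 genes were called lower, BCAS3 (-1.95) among them, and the median was -0.14. Around GATA2, 3 genes of 27 were called higher and 4 lower, PODXL2 (-6.02) and GATA2-AS1 (-2.09) among the latter, and around SOX15 2 of 76 were higher and 8 lower. The share of these regions in the changes of the listed genes was not tested. Copy number was not measured here, and its part in the regional and chromosome medians was not tested.

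Genes known as FOXO targets were examined next to FOXO1, FOXO3 and FOXO4. Of 19 listed genes 18 were matched and 16 tested, with a median log2 fold change of 0.56. Of the 16, 5 were called higher and 1 lower, beside 8.30% and 7.73% of all tested genes. By adjusted p alone 10 were higher and 5 lower, beside 31.9% and 32.0% of all tested genes. SESN3, which restrains mTORC1 signalling, rose from 5.62, 6.27 and 6.84 CPM to 86.4, 76.4 and 93.3 CPM (log2 fold change 3.80, adjusted p = 7.87e-28). IRS2 (3.39), an insulin receptor adaptor, BCL6 (2.73), a transcriptional repressor, FBXO32 (2.18), a ubiquitin ligase subunit, and BCL2L11 (1.57), which encodes the pro-apoptotic BIM, were the others called higher. TXNIP, an inhibitor of thioredoxin, had 18, 17 and 11 counts in WT and 2, 1 and 0 in KO, and was called lower. IRS2 passed the filter through KO alone and TXNIP through WT alone, which favours a difference in the direction seen. Under the fold threshold, CDKN1B, RICTOR, PIK3IP1 and CAT fell and GADD45A, CCNG2, SESN1, CITED2 and KLF2 rose, and INSR did not pass. AKT1, the kinase that phosphorylates FOXO proteins, fell from 133 ± 4.49 to 98.6 ± 3.25 CPM (log2 fold change -0.43, adjusted p = 4.05e-09), whereas AKT2 did not pass, at 122 ± 8.70 and 119 ± 3.51 CPM (-0.05, adjusted p = 0.427).

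**Figure D4:**
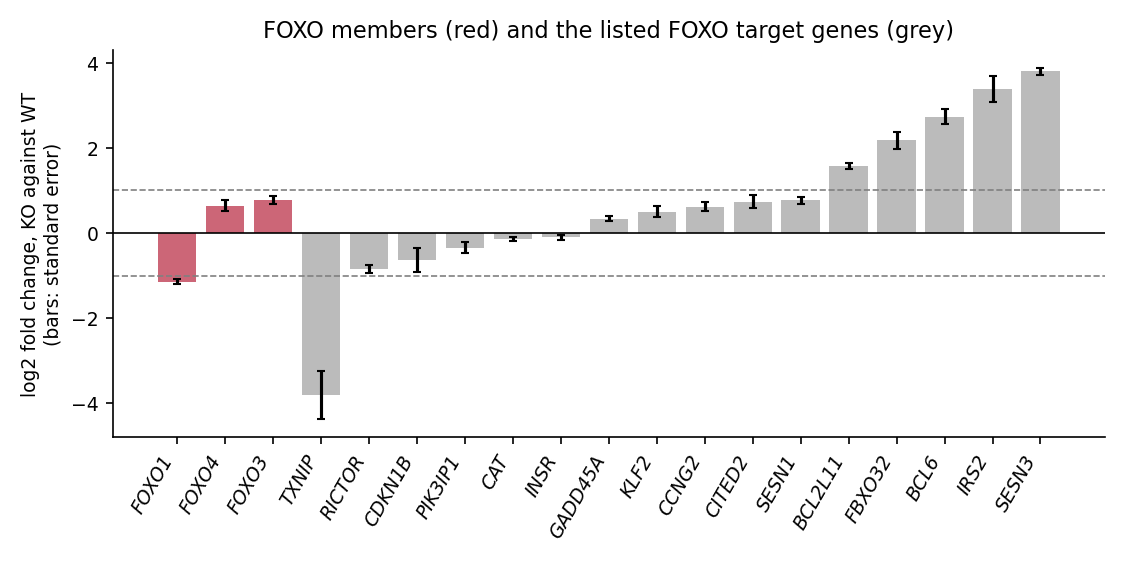
Log2 fold change of the 3 FOXO genes (red) and of the 16 tested FOXO target genes (grey), with bars of 1 standard error and dashed lines at -1 and 1. FOXO1 is below -1 and SESN3, IRS2, BCL6, FBXO32 and BCL2L11 are above 1.

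Of 30 further genes of the same families outside the 58, 11 were tested, 5 were called higher and none lower, beside 8.30% and 7.73% of all tested genes, and the median log2 fold change was 0.55. FOXF1, FOXN4 and FOXL1 passed the filter through KO alone, which favours genes higher in KO. FOXF1, a mesenchymal forkhead gene, had no count in WT and 737, 717 and 433 counts in KO, at least 99.9-fold higher against a floor of 3 counts per library. FOXN4 (3.09), FOXP3 (1.79), FOXL1 (1.58) and FOXO6 (1.22) were also called higher, all under 5 CPM in KO. FOXM1, the proliferation-associated forkhead gene, rose from 155 ± 8.59 to 186 ± 4.22 CPM (0.26, adjusted p = 3.70e-05).

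Of 22 partners and regulators 15 were tested, and HAND2 (2.25), a mesenchymal bHLH factor, and PAX6 (2.06), a neural and eye factor that passed the filter through KO alone, were called higher, with none lower and a median of 0.08. For this list and those below, the shares among all tested genes were 8.30% called higher and 7.73% called lower. Of 14 SOX target genes 4 were tested. MITF was called higher from 1.80 ± 0.0759 to 20.4 ± 1.15 CPM, and NES, a neural progenitor filament, fell by 0.72 on the log2 scale. SOX10, a known activator of MITF, had no count, and the cause of the MITF rise was not tested. Among 18 endoderm and mesoderm genes 4 were tested. HAND2 was called higher, NKX2-5, a cardiac factor, rose by 0.39 on the log2 scale, and ISL1, a cardiac and motor neuron factor that passed the filter through WT alone, was called lower from 14.9, 14.9 and 13.7 CPM to 0.366, 0.0743 and 0.169 CPM. Of 21 noncoding RNAs and copies beside these genes 6 were tested. FOXN3-AS1 (1.29), which passed the filter through KO alone, was called higher and GATA2-AS1 (-2.09) and FOXP4-AS1 (-1.02) lower. These antisense calls carry the limit of strand given above.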

How the data were processed

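The authors aligned reads with STAR to GRCh38 after FastQC and counted them per gene with HTSeq; versions, and whether counting used strand, were not given in the sources used here. The deposited file holds raw counts. Gene names were taken from GENCODE release 44 by Ensembl identifier (56321 of 60483 matched). Counts were filtered with filterByExpr (minimum count 10, minimum total 15), scaled by TMM and tested in edgeR 4.0.16 (R 4.3.3) with the two-sided quasi-likelihood test and Benjamini-Hochberg adjustment over 16198 genes. SE is the log2 fold change over the square root of F. RPKM used the union of annotated exons. limma 3.58.1 (voom), DESeq2 1.42.0, other scalings and filters, omission of each library, a fold-threshold test and thinning were alternatives. On simulated counts for 15881 genes with 200 changed, edgeR recovered 200 with 2 false calls. The changed genes excluded the lowest levels, had changes well past the fold threshold and shared a common dispersion. The simulation therefore does not cover calls at low counts or near that threshold.

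The genes and lists were chosen with earlier results of these data known. Genes given per library were those called, the 2 highest per length in each family and group, the largest and smallest changes among those not called, and genes counted in 1 group only. Protein identity between members was not compared, since no protein sequences were used here.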

Additional observations from a re-analysis of the deposited data

How the results depend on the processing

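The same 10 genes were called with voom/limma, DESeq2, RLE and upper-quartile scaling and at an adjusted p under 0.01. Without a filter 46 of the genes were tested, 6 were called higher and 10 lower. Among all 31569 genes tested that way, 1883 were called higher and 1684 lower. Requiring at least 10 counts in every library left 24 genes and removed FOXP1, TBX3, GATA3 and FOXC1 by construction. It gave 1 called higher, 5 lower and a median of -0.23, beside 568 higher and 684 lower among all 13405 genes left. Testing against the fold threshold lost TBX4, and thinning to the smallest library, added after seeing the data, left GATA3 untested. Leaving out 1 library gave 4 to 5 called higher and 6 to 7 lower, FOXJ1 and SOX9 being the additions. Among all 16439 to 16714 genes then tested, 1377 to 1502 were called higher and 1269 to 1369 lower. With the longest transcript as length, FOXK2 held 28.1% of the forkhead sum in WT and 25.2% in KO. FOXN2, which led in KO by the union of exons, then came second there with 16.5%. SOX4 held 30.5% of the SOX sum in WT and SOX12 42.0% in KO, and TBX2 held 82.8% and 81.4% of the T-box sum. Within 500 kb the neighbours' median was 0.019 for FOXL2, -0.30 for FOXO1, -0.32 for TBX4, 0.25 for GATA2 and -0.26 for GATA3, and TBX3 had no tested neighbour. Leaving out 1 library, the medians ran from -0.15 to 0.094 around FOXC1, where the sign turned without WT replicate 1, from 0.049 to 0.092 around FOXL2, 0.89 to 0.98 around FOXP1, -0.48 to -0.40 around SOX4, -0.23 to -0.20 around SOX15, 0.38 to 0.43 around TBX3, -0.19 to -0.10 around TBX4, 0.19 to 0.23 around GATA2, and -0.24 to -0.20 around GATA3. Of 370 values of single genes, 356 kept direction and call, 4 lost the adjusted p threshold (FOXP4, SOX7), 4 passed it (FOXJ3) and 6 turned sign: FOXF2 at -0.087 when thinned, and FOXK1 (-0.063 to 0.072) and FOXN2 (-0.030 to 0.074) over the settings tried. The cause was not tested. Depth limits the genes under about 10 counts. Protein identity was not run. No paired analysis was possible because the labels give the groups no shared replicate numbers.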
